A study of Mus musculus with 2 samples.

Results

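Semaphorins are secreted or membrane-bound guidance proteins, and plexins are their receptors on the growing axon or dendrite. Most of the secreted class 3 semaphorins reach the plexins through a neuropilin co-receptor, while the membrane-bound classes bind plexins directly. Bound plexins act on small GTPases and on the actin and tubulin cytoskeleton, and axons, spines or synapses are repelled, collapsed or in some settings attracted. In the hippocampus the system is known for placing mossy fibres, the axons of dentate granule cells, and for removing surplus axon branches and spines after birth.

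The genes described here were chosen by symbol: every gene named Sema followed by a digit, Plxna to Plxnd, Plxdc, Nrp1 or Nrp2 that has a protein-coding transcript. The rule took 33 of 55536 annotated genes, made up of 20 semaphorins, 9 plexins, 2 neuropilins and 2 Plxdc genes. The samples were hippocampus from female B6CASTF1/J mice, F1 hybrids of a laboratory strain and a wild-derived strain, at 10 days of age. The 2 libraries, biological replicates 1 and 2, formed 1 group with no treatment, so the data give levels within this tissue, ratios between family members, transcript forms, and the difference of replicate 1 from replicate 2. Each library came from 300 ng of total RNA pooled from 3 females, was depleted of ribosomal RNA, kept strand and carried ERCC spike-ins, which are synthetic RNAs of known amount. The labels speak of a layer of the hippocampus without naming it, and reads of both parental alleles were quantified together on mm10 with GENCODE M21.

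Replicate 1 held 29858328 expected counts and replicate 2 held 32275110. All 6 hippocampal neuron markers on the fixed list were detected in both libraries, as were the 4 astrocyte, 3 interneuron, 4 microglial and 5 endothelial markers. The libraries differed in content: the 8 markers of myelinating oligodendrocytes summed to 195.41 TPM in replicate 1 and 575.03 TPM in replicate 2, with all 8 higher in replicate 2. The 4 markers of cortex and subiculum summed to 142.44 TPM in replicate 1 and 85.77 TPM in replicate 2, and all 4 were higher in replicate 1. In bulk tissue, fewer cells of a type and less RNA per cell cannot be told apart.

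All 33 genes were detected, meaning a TPM, the deposited level per transcript length, of 1 or more in both libraries, against 59.14% of 22015 nuclear protein-coding genes. The TPM of a gene counts all its transcripts, coding or not. For Sema3b, those with a complete coding sequence held only 0.47 TPM in replicate 1 and 0.49 TPM in replicate 2. A TPM of 10 or more in both libraries was reached by 26 of the 33, against 36.32% of nuclear protein-coding genes. The median of the family was 24.1 TPM, against 15.4 TPM over the 13019 detected nuclear protein-coding genes. Together the 33 genes summed to 877.45 TPM in replicate 1 and 846.74 TPM in replicate 2. The 20 semaphorins gave 432.38 and 441.31 TPM of this, and the 9 plexins 321.41 and 289.95 TPM.

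**Figure D1:**
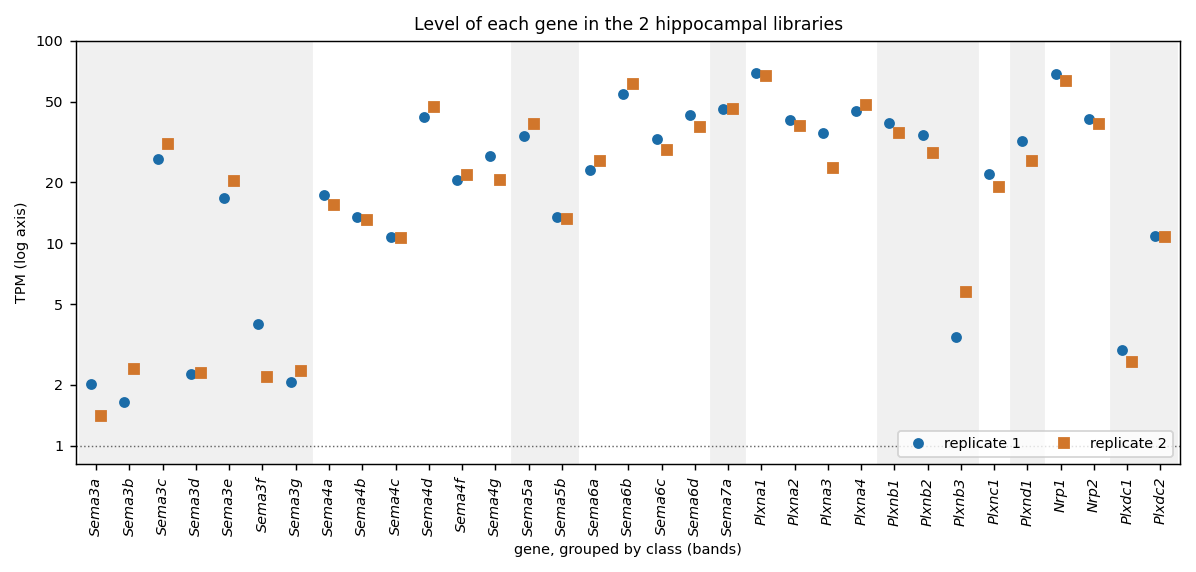
TPM (log axis) of the 33 genes, grouped by class in bands, with replicate 1 as circles and replicate 2 as squares; the dotted line marks the detection level of 1 TPM. Receptors and co-receptors sat mostly above 20 TPM, whereas 5 of the 7 class 3 ligands sat below 5 TPM.

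The secreted class 3 ligands had the lowest median of the classes with more than 2 genes, 2.27 TPM over 7 genes. Sema3c, which can attract or repel axons, stood at the top of the class with 26.08 TPM in replicate 1 and 30.90 TPM in replicate 2. Sema3e, the ligand that binds Plxnd1 without needing a neuropilin, had 16.73 and 20.33 TPM. These 2 genes were well apart from the rest of the class, none of which passed 4 TPM in either library. Sema3f, the repellent that acts through Nrp2, had 3.97 TPM in replicate 1 and 2.17 TPM in replicate 2. Sema3a, the founding collapsin that acts through Nrp1, was the lowest of all 33 genes with 2.01 and 1.40 TPM. Sema3d had 2.25 and 2.28 TPM, Sema3g 2.05 and 2.34 TPM, and Sema3b 1.64 and 2.39 TPM. The last 5 rest on few reads, from 80 counts for Sema3b in replicate 1 to 273 for Sema3d in replicate 2, and neighbours among these 5 overlapped in their 2 values.

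Membrane-bound ligands carried most of the semaphorin level. The 4 class 6 genes, transmembrane ligands of the plexin A receptors, summed to 153.19 TPM in replicate 1 and 153.29 TPM in replicate 2, the highest sum of any semaphorin class. Sema6b (chr17:56123085-56140343, minus strand) led all semaphorins with 54.67 and 61.46 TPM. Sema6b is known with Sema6a for holding mossy fibres to their layer through Plxna4 and Plxna2. Sema6d (chr2:124089969-124667770, plus strand), a ligand of Plxna1, had 42.79 and 37.45 TPM. Sema6c had 32.82 and 29.00 TPM, and Sema6a had 22.91 and 25.38 TPM. The sum of the class was nearly equal in both libraries, with Sema6c and Sema6d higher in replicate 1 and Sema6a and Sema6b higher in replicate 2.

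Class 4, with 6 transmembrane genes, summed to 131.36 and 128.07 TPM. Sema4d (chr13:51685529-51793747, minus strand), the ligand of Plxnb1, was the highest with 42.12 TPM in replicate 1 and 46.81 TPM in replicate 2. Sema4g followed with 27.08 and 20.50 TPM, and Sema4f with 20.59 and 21.63 TPM. Sema4a had 17.34 and 15.50 TPM, Sema4b 13.46 and 13.01 TPM and Sema4c, a ligand of Plxnb2, 10.77 and 10.62 TPM. Class 5 holds ligands with thrombospondin repeats, of which Sema5a, known to limit synapses on dentate granule cells through Plxna2, had 33.82 and 38.77 TPM and its paralogue Sema5b 13.53 and 13.16 TPM. Sema7a (chr9:57940112-57962865, plus strand), which has a lipid anchor in place of a membrane-spanning part and is a ligand of Plxnc1 and integrins, had 45.75 and 46.21 TPM and varied least among the 5 highest genes.

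Among the receptors the plexin A group had the highest sum of any class, 190.35 TPM in replicate 1 and 177.26 TPM in replicate 2. Plxna1 (chr6:89316314-89362620, minus strand) was the highest of all 33 genes with 69.55 and 67.31 TPM, a mean of 68.4 ± 1.6 TPM (SD, n = 2). Plxna4 (chr6:32144268-32588192, minus strand), which takes part in class 3 signalling and binds class 6 ligands, had 45.08 and 48.21 TPM. Plxna2 (chr1:194618218-194816869, plus strand), the receptor that lays down mossy fibre lamination with Sema6a, had 40.64 and 38.12 TPM. Plxna3, the partner of Nrp2 in the response to Sema3f, was the lowest of the group with 35.08 TPM in replicate 1 and 23.62 TPM in replicate 2, and it had the widest spread of the group.

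The plexin B receptors, which bind class 4 ligands and act on RhoA through PDZ-binding exchange factors, summed to 77.02 and 68.45 TPM. Plxnb1 had 39.33 and 34.92 TPM and Plxnb2 34.24 and 27.82 TPM. Plxnb3, known from the oligodendrocyte lineage, was far lower with 3.45 TPM in replicate 1 and 5.71 TPM in replicate 2. Plxnd1, the Sema3e receptor known best from blood vessels, had 32.03 and 25.32 TPM, and Plxnc1, the Sema7a receptor, 22.01 and 18.92 TPM.

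Both neuropilins were abundant. Nrp1 (chr8:128358604-128503363, plus strand), which binds Sema3a and VEGF, had 68.71 TPM in replicate 1 and 63.24 TPM in replicate 2. Nrp2 (chr1:62703285-62818695, plus strand), which binds Sema3f, had 41.12 and 38.95 TPM. Sema3a and Sema3f thus stood below 4 TPM in both libraries and the neuropilins above 38 TPM, while Sema3c, which also binds neuropilins, had 26.08 and 30.90 TPM. The Plxdc genes, which share only a plexin-like repeat with the receptors, were unequal: Plxdc2 had 10.85 and 10.69 TPM and Plxdc1 2.98 and 2.60 TPM.

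From the highest gene, Plxna1, to the lowest, Sema3a, the means spanned 40.1-fold. Ranked by mean, 25 of 32 neighbouring genes overlapped in their 2 values, and 7 steps were free of overlap. These steps came after Nrp1, after Sema6b, after Sema3c, after Sema4a, after Sema4b, after Sema4c and after Plxdc1. Plxna1 and Nrp1 therefore shared the top with no separation, Sema6b stood alone below them, and the 13 genes from Plxna4 to Sema3c formed 1 run of overlapping neighbours. As a ratio, the step after Sema4c was the widest, with 10.62 TPM as the lower value of Sema4c and 5.71 TPM as the upper value of Plxnb3. The 7 genes below that step were 5 class 3 ligands, Plxnb3 and Plxdc1. The coefficient of variation over the 2 libraries had a median of 8.4% over the 33 genes, against 7.26% over detected nuclear protein-coding genes, and reached 41.5% for Sema3f. A second deposited estimate, from reads matched to a transcript index, named the same 10 genes as the highest 10, and the Spearman correlation of means over the 33 genes between the tables was 0.976, with the reads shared between them.

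Ligand and receptor partners and paralogues were compared as 14 pairs of log2(TPM + 0.1) ratios within each library. A pair was called when the sign was shared by both libraries and the mean lay beyond 2 SD, since with 2 libraries an exact sign-flip test cannot go below p = 0.5. By this rule 9 pairs were called, 5 in favour of the gene named first and 4 in favour of its partner. Nrp1 exceeded Nrp2 with log2 ratios of 0.74 in replicate 1 and 0.70 in replicate 2, a 1.65-fold difference. This ratio had the smallest spread of the 14, with a mean of 0.72 ± 0.03 (SD, n = 2). Sema5a exceeded Sema5b with log2 ratios of 1.32 and 1.55, a 2.70-fold difference. Plxdc2 exceeded Plxdc1 by 1.83 and 2.00, a 3.77-fold difference. Plxnb1 exceeded Plxnb2 by only 0.20 and 0.33 on the log2 scale. Of these called pairs of paralogues, Plxnb1 and Plxnb2 were the closest in level. In the read-based table they were farther apart, at a mean of 0.88, than Nrp1 and Nrp2, at 0.74.

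Ligands were not uniformly lower than their receptors. Sema7a exceeded Plxnc1 with log2 ratios of 1.05 in replicate 1 and 1.28 in replicate 2, a 2.25-fold difference. The opposite held for Sema6d over Plxna1, with log2 ratios of -0.70 and -0.84, and for Sema6a over Plxna2, with -0.82 and -0.59. Sema4c was the farthest below its receptor, with log2 ratios over Plxnb2 of -1.66 and -1.38, or 2.87-fold lower. In the read-based table that ratio shrank to -0.27 and was no longer called: Sema4c had a mean of 26.7 TPM there, 2.49 times its alignment-based mean, and Plxnb2 31.7 TPM, 1.02 times, beside a median of 1.53 times over the 33 genes. Among secreted ligands, Sema3a over Sema3f gave -0.95 and -0.60, which was also not called in the read-based table at a mean of -0.61. The 5 pairs that were not called were Plxna4 over Plxna3, Plxna2 over Plxna4, Sema3e over Plxnd1, Sema4d over Plxnb1 and Sema5a over Plxna2. Of these, Sema3e over Plxnd1 had log2 ratios of -0.93 and -0.32, and was called in the read-based table at a mean of -0.56. Sema5a over Plxna2 was the only pair whose sign differed, with -0.26 in replicate 1 and 0.02 in replicate 2. All these ratios used the whole TPM of each gene, including transcripts not annotated as protein-coding. By protein-coding transcripts alone, Sema5a had 20.78 and 25.19 TPM and Plxna2 34.13 and 33.09 TPM. Plxna4 had 43.45 and 46.96 TPM on that measure, and Plxna3 15.84 and 11.60 TPM. For the called pair of Sema3a and Sema3f, transcripts with a complete coding sequence gave Sema3a 1.55 TPM in replicate 1 and 1.02 TPM in replicate 2. Those of Sema3f were Sema3f-201, with 0.68 and 0.58 TPM, and Sema3f-204, with 1.22 and 0.23 TPM. Their sum was above Sema3a in replicate 1 and below it in replicate 2, so the direction was not shared. The calling rule was not run on either measure.

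**Figure D2:**
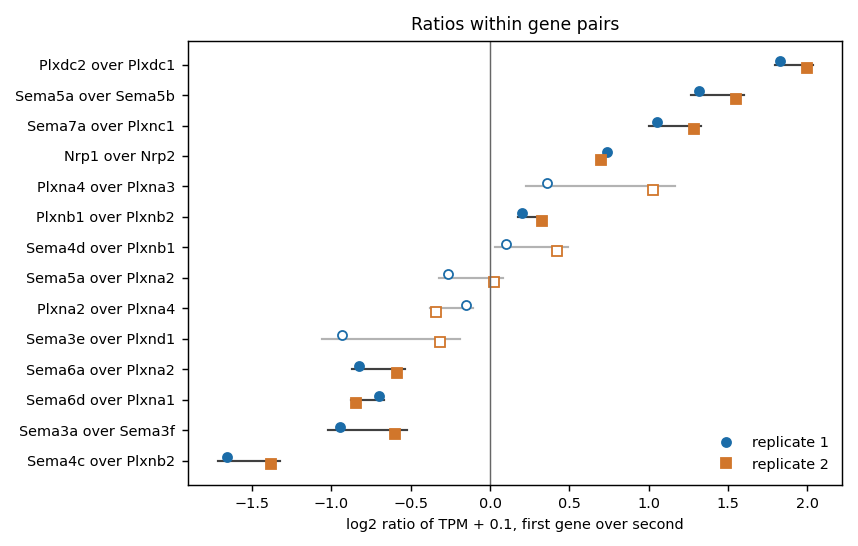
Log2 ratio of TPM + 0.1 within each library for 14 gene pairs, the first gene over the second, with replicate 1 as circles, replicate 2 as squares and a line for the mean ± SD; filled symbols mark the 9 pairs called. Nrp1 over Nrp2 is the tightest pair and Plxna4 over Plxna3 the widest.

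Transcript tables showed which forms of these genes the tissue held. The genes examined were the 26 at a mean TPM of 5 or more with 2 or more annotated transcripts. In the alignment-based table the leading transcript was protein-coding in all 26 and the same in both libraries in all 26. It took a median of 60.4% of the gene's TPM in replicate 1 and 64.7% in replicate 2. Plxna1-202 took 97.1% and 98.7%, Sema7a-201 100% and 95.2%, and Plxna4-201 96.4% and 97.4%. In the read-based table Plxna4-201 kept 96.0% and 97.0%, while Plxna1-202 took 79.0% and 82.7% and Sema7a-201 99.6% and 85.2%. At the other end Sema6d-208 took 24.0% and 25.8% of Sema6d, and Nrp2-205 took 30.8% and 34.6% of Nrp2. The leading transcript was the same in the read-based table for 23 of the 26 genes, the exceptions being Sema4c, Nrp2 and Sema4a. Sema4c was led there by Sema4c-206, a retained-intron transcript, with 10.24 and 5.51 TPM. Sema6b-201 took 91.8% and 94.3% in the alignment-based table, and 51.4% and 49.8% in the read-based one, the rest falling to Sema6b-202 with the same coding sequence.

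Transcripts with identical complete coding sequences were then joined, which left 19 of the 26 genes with 1 coding form and 7 with several. Of those 7, Sema4a and Sema6c held over 90% of their coding TPM in 1 form, while Nrp2, Sema6d, Sema6a, Sema5b and Plxdc2 divided theirs. Nrp2 is the best known case: its forms part at the 3′ coding end, giving membrane-spanning and cytoplasmic parts that differ. The coding ends of Nrp1 and of the commonest form of each Nrp2 type are shown from GENCODE M21 on mm10, plus strand, as the last 60 coding bases with the stop codon. Capitals mark the 3 codons before the stop.
Nrp1-201: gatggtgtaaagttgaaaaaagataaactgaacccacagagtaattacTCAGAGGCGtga
Nrp2-204: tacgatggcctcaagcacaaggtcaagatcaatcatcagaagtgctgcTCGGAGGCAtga
Nrp2-205: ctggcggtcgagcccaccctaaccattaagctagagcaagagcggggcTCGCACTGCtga
These lie at chr8:128502755-128502814, chr1:62815578-62815637 and chr1:62795930-62795989. The capitals of Nrp2-204 are synonymous with those of Nrp1, the tail known to bind the PDZ protein Gipc1, and those of Nrp2-205 are not. Of the 60 bases, 31 are the same in Nrp1-201 and Nrp2-204, against 18 in Nrp1-201 and Nrp2-205. The 2 Nrp2 forms share their first 2425 coding bases and then have 305 and 281 bases of their own.

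The Nrp1-like end, carried by Nrp2-202, Nrp2-203, Nrp2-204 and Nrp2-206, summed to 23.16 TPM in replicate 1 and 23.08 TPM in replicate 2. The other end, carried by Nrp2-201 and Nrp2-205, summed to 13.81 and 13.76 TPM. The Nrp1-like end thus took 62.6% of Nrp2 coding TPM in each library, and the read-based table gave 62.3% and 63.4%. Single transcripts were less certain than these sums: the authors' deposited interval for Nrp2-203 ran from 0.095 to 9.09 TPM in replicate 1, around a value of 5.17 TPM. Nrp2-203 differs from Nrp2-204 only by a 15-base coding insert at chr1:62786302-62786316, shown in capitals after the 30 coding bases that precede it in the spliced transcript.
Nrp2-203: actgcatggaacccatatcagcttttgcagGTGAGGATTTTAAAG
Forms with the 15 bases took 19.2% of Nrp2 coding TPM in replicate 1 and 14.0% in replicate 2, and 17.3% and 8.52% in the read-based table. The insert was in the minority in every table and library. Gipc1, the adaptor of the Nrp1-like tail, had 34.00 and 35.33 TPM.

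Sema6d had 6 coding forms that differ by cassette exons between its semaphorin domain and its membrane-spanning part. The shortest, shared by Sema6d-202 and Sema6d-208, lacks all 3 exons shown here in the order in which they lie on the plus strand of chromosome 2. They are printed because the forms are made of their combinations, and capitals in the longest mark the last 12 bases, which Sema6d-207 lacks.
Sema6d exon of 39 bases: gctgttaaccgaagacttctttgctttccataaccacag
Sema6d exon of 57 bases: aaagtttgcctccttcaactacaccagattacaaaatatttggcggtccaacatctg
Sema6d exon of 168 bases: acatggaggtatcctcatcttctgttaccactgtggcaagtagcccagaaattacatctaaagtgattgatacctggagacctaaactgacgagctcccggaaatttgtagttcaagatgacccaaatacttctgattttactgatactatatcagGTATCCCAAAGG
They lie at chr2:124660244-124660282, chr2:124660705-124660761 and chr2:124662204-124662371. The form without any of them took 46.3% of Sema6d coding TPM in replicate 1 and 34.9% in replicate 2, and 47.4% and 30.4% in the read-based table. The exon of 39 bases was in transcripts with 16.8% and 14.3% of coding TPM. That of 57 bases was in transcripts with 43.9% and 43.6%. The exon of 168 bases, with or without its last 12, was in transcripts with 36.9% in replicate 1 and 50.8% in replicate 2. In the read-based table, which shares its reads, the exon of 39 bases stood at 19.7% and 21.2% and that of 57 bases at 36.6% and 39.9%. The longest stood there at 33.0% and 48.4%, so both tables placed it higher in replicate 2. The deposited intervals of the transcripts with the longest exon overlapped between libraries. For Sema6d-206 they ran from 2.89 to 7.52 TPM in replicate 1 and from 4.63 to 8.53 TPM in replicate 2.

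**Figure D3:**
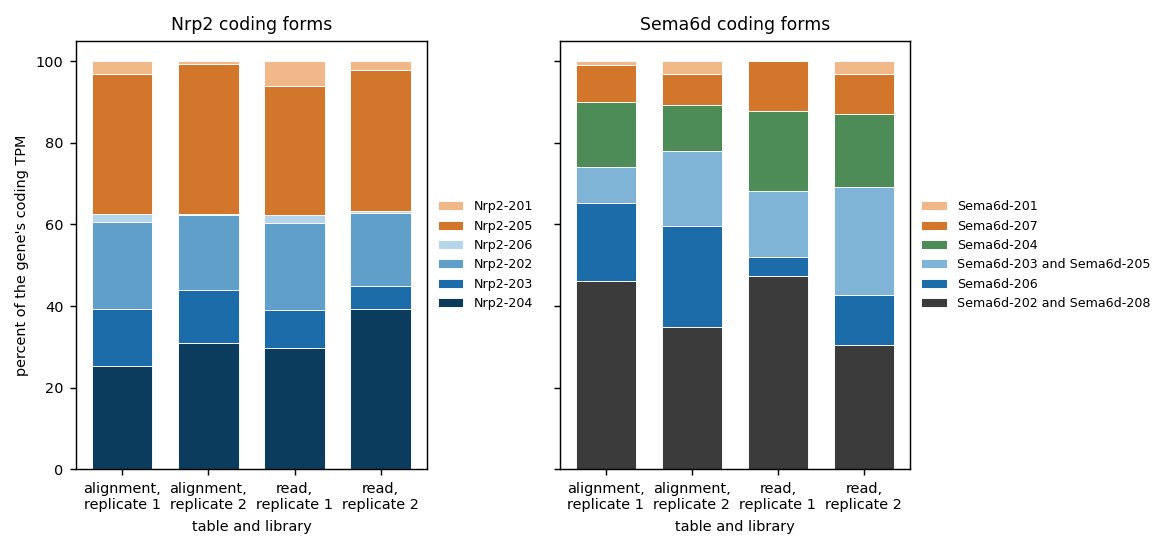
Percent of coding TPM in each coding form of Nrp2 (left) and Sema6d (right), for both libraries in the alignment-based and the read-based tables; in Nrp2 the blue parts are forms with the Nrp1-like end and the orange parts those with the other end. The boundary between blue and orange lies between 62.3% and 63.4% in all 4 bars, while Sema6d forms move between libraries.

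The other divided genes gave simpler splits. Sema5b-201 took 62.4% of Sema5b coding TPM in replicate 1 and 70.3% in replicate 2, and Sema5b-202, longer by 87 coding bases, took the rest. The commonest Sema6a form, shared by Sema6a-201 and Sema6a-210, took 58.2% and 47.2%. Plxdc2-201 took 64.4% and 65.0%. Outside these, Sema4d was led by Sema4d-204, a short transcript whose coding start is not annotated, with 13.38 TPM in replicate 1 and 17.61 TPM in replicate 2. It took 31.8% and 37.6% of the gene, ahead of the full-length Sema4d-201 at 12.47 and 17.15 TPM, so part of the Sema4d level did not come from transcripts annotated with a complete coding sequence.

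Total RNA also holds unspliced and partly spliced RNA, and 25 of the genes at a mean TPM of 5 or more have transcripts of a class other than protein-coding, mostly retained introns. Such transcripts took a median of 17.9% of a gene's TPM in replicate 1 and 18.0% in replicate 2, against 18.7% and 16.1% over 8515 nuclear protein-coding genes with such transcripts at that level. Of these 25 genes, Plxna3 was the only one over 50% in both libraries, at 54.8% and 50.9%. Its coding transcript stood at 15.84 TPM in replicate 1 and 11.60 TPM in replicate 2, so less than the gene's 35.08 and 23.62 TPM came from the receptor's full coding form. Sema6c followed with 40.5% and 44.1%, and Sema5b with 39.8% and 42.3%. Plxnb2 had 42.8% and 34.4%, but 12.5% and 7.34% in the read-based table. Plxna1, Plxna4, Sema7a and Plxdc2 were under 5% in both libraries, but Sema7a had 0.367% and 14.8% in the read-based table. The share was higher in replicate 1 for 16 of 25 genes, or 64.0%, against 66.6% of the 8515 genes. In Nrp1 it was 23.7% in replicate 1 and 16.5% in replicate 2, with the coding transcript Nrp1-201 at 52.45 and 52.81 TPM, so that the higher Nrp1 level of replicate 1 lay in retained-intron transcripts. Nrp2 showed a similar picture, with 10.1% and 5.42%.

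**Figure D4:**
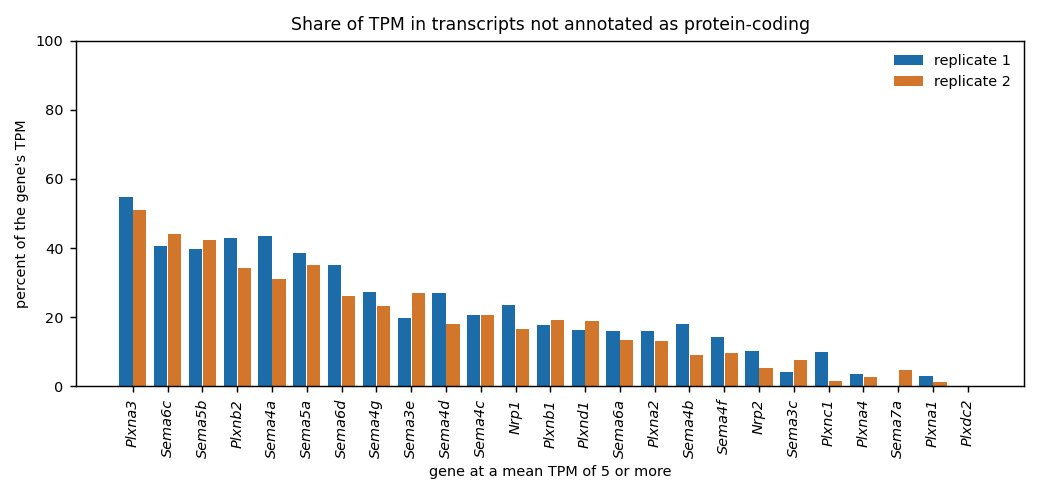
Percent of each gene's TPM in transcripts not annotated as protein-coding, for 25 genes at a mean TPM of 5 or more, with replicate 1 left of replicate 2 for each gene. Plxna3 is the highest at 54.8% and 50.9%, and Plxdc2 is listed at 0 in both.

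Replicate 1 was set against replicate 2 gene by gene on expected counts, with a two-sided exact binomial test conditional on the sum, scaled by TMM (edgeR) and adjusted by Benjamini-Hochberg over 20544 genes. With 1 library on each side the test compares these libraries, not conditions, and its standard errors cover counting error only. At an adjusted p under 0.05 and a log2 ratio of 1 or more, 0 of the 33 genes were called, against 2.83% of all genes tested and 0.483% of 13039 nuclear protein-coding genes with 100 or more counts. At an adjusted p under 0.05 alone, 6 of the 33 were higher in replicate 1, against 11.5% of all genes, and 10 were higher in replicate 2, against 15.7%. Among the 13039 well-counted genes, 11.2% were higher in replicate 1 and 23.1% in replicate 2 at that adjusted p. At an unadjusted p under 0.05 there were 17 of the 33, and no share of all genes was computed at that threshold. The balance of directions depended on the scale. Past the adjusted p, total counts put 8 of the 33 higher in replicate 1 and 7 in replicate 2. The shares of all genes tested were 18.8% and 8.6%. ERCC spike-ins gave 23 and 1, against 52.4% and 1.86% of all genes tested. The median size of the log2 ratio was 0.12 over the 33 genes and 0.13 over those 13039 genes.

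Plxnb3 differed most. It had 402 counts in replicate 1 and 742 in replicate 2, a log2 ratio of -0.85 ± 0.09 (counting SE) with an adjusted p of 9.79e-21 in the exact binomial test. Sema4d, also known from oligodendrocytes, had 2003 and 2618 counts and a log2 ratio of -0.35 ± 0.04, with an adjusted p of 4.39e-15 in the same exact test. Both moved with the markers of myelinating oligodendrocytes, of which all 8 were called higher in replicate 2 and none was at 0, from Opalin with 0.18 and 0.62 TPM to Mbp with 80.49 and 253.46 TPM. Other marker lists summed higher in replicate 2 as well. The 6 hippocampal neuron markers summed to 758.01 and 937.14 TPM, the 4 astrocyte markers to 1014.11 and 1157.89 TPM, and the 3 interneuron markers to 139.07 and 171.60 TPM. The 4 microglial markers summed to 70.48 and 86.43 TPM, and the 3 choroid plexus markers to 432.12 and 680.26 TPM. The 3 markers of oligodendrocyte precursors differed less, at 133.53 and 142.19 TPM. By TPM, 4 of the 6 neuron, 3 of the 4 astrocyte, all 3 interneuron and all 3 choroid plexus markers were higher in replicate 2. So were all 4 microglial and 2 of the 3 precursor markers. Single genes carried most of several sums, such as Slc17a7, with 478.98 and 619.04 TPM, among neuron markers, and Ttr, with 422.39 and 670.07 TPM, among choroid plexus markers. The part of any of these cells in the Plxnb3 and Sema4d differences was not tested. Sema3e, with 2207 and 2880 counts, and Sema5a, with 5400 and 6988 counts, were higher in replicate 2, with log2 ratios of -0.35 and -0.34. With ERCC spike-ins as the scale, Sema4d, Sema3e and Sema5a kept a negative sign at -0.07, -0.07 and -0.06 but were no longer past the adjusted p.

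In the other direction, Sema3f had 159 counts in replicate 1 and 94 in replicate 2, a log2 ratio of 0.79 ± 0.19 with an adjusted p of 0.000196 in the exact binomial test. Sema3a had 209 and 154 counts and a log2 ratio of 0.47 ± 0.15, with an adjusted p of 0.00999 in that exact test. Both of these low ligands rest on small counts. Plxna3, with 2547 and 2049 counts, was higher in replicate 1 by 0.35 ± 0.04, and Plxnd1, with 3817 and 3115 counts, by 0.33 ± 0.03. Sema4g and Sema6c followed at 0.29 and 0.18. The 4 cortex and subiculum markers also had higher TPM in replicate 1, from Etv1 with 31.77 and 28.65 TPM to Tshz2 with 28.40 and 6.79 TPM, and none was at 0. Of these markers Tshz2 alone was called, Slc17a6 and Fn1 passed the adjusted p, and Etv1 did not, at 0.0614 in the exact test. The 5 endothelial markers, by contrast, were level by sum, at 83.30 TPM in replicate 1 and 83.06 TPM in replicate 2. Their log2 count ratios ran from -0.16 for Cldn5 to -0.05 for Kdr. The part of cortex, subiculum or vessels in these differences was not tested.

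The remaining genes past the adjusted p were higher in replicate 2 by small ratios: Sema6b at -0.28, Plxna4 and Sema4f at -0.21, Sema6a at -0.17, and Nrp2 and Plxna1 at -0.08. With ERCC spike-ins as the scale, which moved the median log2 ratio of all tested genes to 0.29, these 6 genes turned positive, though all of them stayed below that median, and Plxna1 also turned to 0.0025 with total counts as the scale. Counts and TPM need not move alike. The count ratios were scaled by TMM, while TPM has the same sum in every library and also divides by the length of the estimated transcript mix. Nrp1 had a count ratio of 0.00 ± 0.03 beside a TPM that was higher in replicate 1, and Plxnb2 had 2784 and 2779 counts beside 34.24 and 27.82 TPM. With total counts as the scale, the log2 ratios were 0.08 for Nrp1 and 0.11 for Plxnb2.

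**Figure D5:**
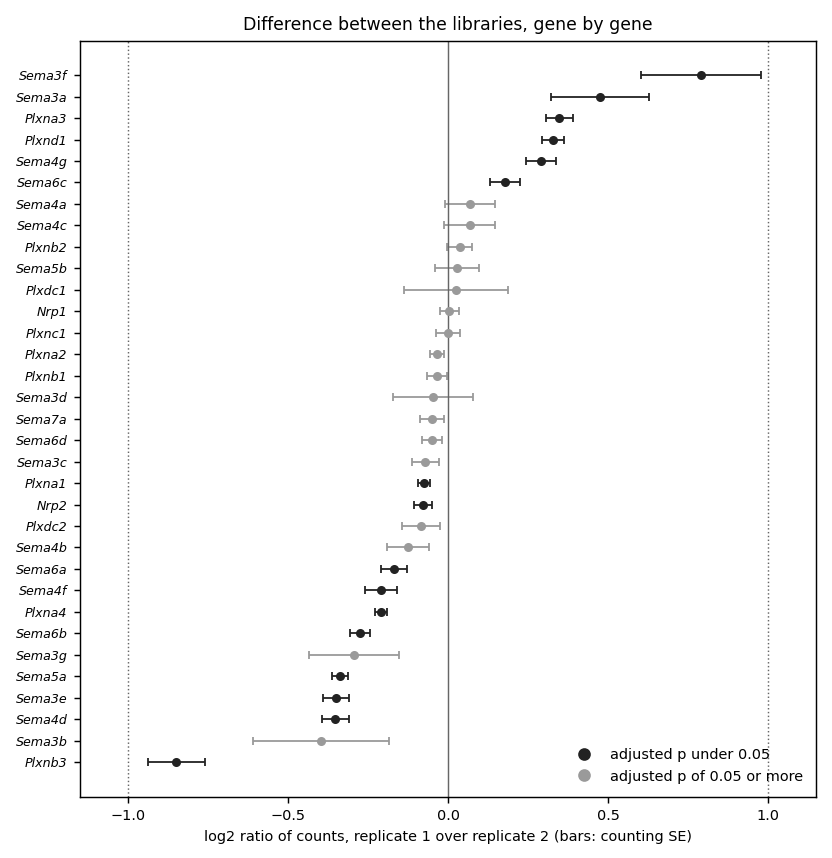
Log2 ratio of counts, replicate 1 over replicate 2, for each of the 33 genes with the counting SE as bars; black points had an adjusted p under 0.05, grey points did not, and dotted lines mark a log2 ratio of 1 in size. No gene passes the dotted lines, and Sema3f at 0.79 and Plxnb3 at -0.85 lie farthest out.

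Of 50 other genes of the pathway, listed as co-receptors, proteases, GTPases, their regulators, kinases, adaptors and cytoskeletal effectors, 48 were detected in both libraries, with a median of 41.1 TPM over the 50. The exceptions were Cd72 and Timd2, receptors of class 4 semaphorins on immune cells, at 0.13 and 0.00 TPM and at 0.02 and 0.07 TPM. The 8 highest of them included 5 cytoskeletal effectors: Cfl1, the actin-severing cofilin, had 799.47 TPM in replicate 1 and 794.48 TPM in replicate 2. Chn1, a GTPase-activating protein for Rac, had 305.18 and 393.24 TPM. The collapsin response mediators Dpysl3, Dpysl2 and Crmp1, which bind tubulin, had 394.51 and 277.33 TPM, 339.66 and 321.08 TPM, and 347.20 and 285.26 TPM. Rac1 itself had 196.77 and 220.86 TPM, the actin oxidase Mical2 189.95 and 192.13 TPM, and Cdk5r1, the activator of the kinase Cdk5, 124.92 and 127.03 TPM. Past the adjusted p of the exact test, 11 of the 48 tested genes were higher in replicate 1 and 19 in replicate 2, beside the 11.5% and 15.7% of all genes and the 11.2% and 23.1% of well-counted genes given above, and 0 passed a log2 ratio of 1. Dpysl3 was higher in replicate 1 by 0.42 and Chn1 higher in replicate 2 at -0.52, so the most abundant genes of the list differed in both directions.

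Overlap with other annotated genes was small. A gene on the opposite strand overlaps 13 of the 33, and none of those neighbours held over 100 counts in either library. On the same strand, Plxna2 contains unclassified transcripts with up to 152 counts in replicate 1 and 113 in replicate 2, beside 8108 and 8499 counts of its own.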

How the data were processed

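Total RNA of 2 hippocampal libraries was analysed from the deposited tables. Build mm10 is named in the labels and annotation M21 in the submitters' processing notes, while programs, their versions and the use of strand in counting stand as not given in the sources used here. The authors deposited expected counts, unnormalized estimates of the reads of each gene or transcript, and in a read-based transcript table they deposited estimated counts. TPM was deposited by the authors as a level per length, scaled to the same sum in every library. FPKM, per the file headers, was used in 1 alternative. The deposited interval bounds of TPM are the authors', at a level not stated. Depth was 29858328 and 32275110 expected counts. Standard errors cover counting error only, and each interval belongs to 1 library, so neither covers the spread between libraries.

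Detection was a TPM of 1 or more. Ratios of pairs used a pseudocount of 0.1 TPM. Expected counts were rounded, and genes with 10 or more over both libraries were tested by an exact conditional binomial test with TMM effective sizes and a pseudocount of 0.5 counts in the ratios. The test was checked on simulated data. Shares of transcripts were computed from TPM, and coding sequences were read from the GENCODE M21 transcripts and annotation. Transcripts without a complete annotated coding sequence entered no coding form. Markers, pairs and the pathway list were fixed by hand, and the genes and lists were chosen with earlier results of these data known. All genes of the rule are named, with the 8 highest genes of the pathway list and any called there, while Cd72, Timd2, Gipc1 and the single markers were named after their values were seen. Replicates come from separately numbered mice, and p-values compare the 2 libraries. Alternatives were other tables, normalizations, filters, thresholds and scales, and leaving out each library. Software was Python 3.11.15 with numpy 2.4.6, pandas 2.3.3, scipy 1.17.1 and matplotlib 3.10.9, and R 4.3.3 with edgeR 4.0.16 and DESeq2 1.42.0, the last for size factors only.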

Additional observations from a re-analysis of the deposited data

How the results depend on the processing

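All 33 genes were detected under every alternative run. The count of genes called between the libraries was 0 with TMM, DESeq2 size factors, total counts, no count filter or read-based counts. It was 1, Sema3f, with ERCC spike-in totals, beside 1276 of all 20544 genes tested. That scale also moved the median of all tested genes to a log2 ratio of 0.29. It was 2, Plxnb3 and Sema3f, at a log2 threshold of 0.58, beside 1176 of the 20544. With no fold threshold it was 16, beside 5572 of the 20544. Among the 16 genes past the adjusted p, signs turned for Plxna1 (0.21), Sema6b (0.0082), Plxna4 (0.0726), Nrp2 (0.20), Sema6a (0.11) and Sema4f (0.0732) with spike-in totals and of Plxna1 (0.0025) with total counts, by construction of the scale. Signs also turned among genes not past it: of the 33, 12 were positive as reported, 11 with DESeq2 size factors, 20 with total counts, 27 with spike-in totals and 9 with read-based counts. Pairs called numbered 9 as reported, 8 with read-based TPM and 9 with FPKM or a pseudocount of 1 TPM. The summed TPM of the 33 genes averaged 862.1, against 1344 in the read-based table and 1922 when rescaled over nuclear protein-coding genes, and ranged between 846.74 and 877.45 with either library left out. The median share of the leading transcript was 64.0%, with a range of 60.4% to 64.7% when a library was left out, and 63.5% in the read-based table. No count of called pairs can be had from 1 library, and no paired analysis was possible because there is only 1 group. Counts limit the 7 lowest genes, and the split of TPM among similar transcripts limits single forms.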
